A study of Arabidopsis thaliana with 8 samples.

Results

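The transcripts of cytochrome P450 genes were followed on Affymetrix ATH1 arrays in developing seeds of Arabidopsis thaliana, in a ttg1 mutant and in the wild-type accession Ler. The members were chosen by name. They are all probe sets that the platform annotation pairs with 1 gene whose symbol has the form of a P450 name, with a family number, a subfamily letter and a gene number. This gave 23 probe sets of 23 genes, out of 22746 probe sets tested and 13356 genes named alone for a probe set. A single subfamily, CYP71B, holds 19 of the 23, and the others are CYP78A9, CYP79A2, CYP84A4 and CYP51G2, so that 5 families are present. In the RefSeq gene table of Arabidopsis 236 genes carry a symbol of this form, and the remaining ones were not analysed here. The annotation used names no gene for 8730 of the probe sets tested. Whether probe sets of other P450 genes are among these was not tested, so the members are not the full P450 content of the array. A further 2 probe sets list a P450 symbol among several genes and were left out.

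The study compared 4 ttg1 mutant samples with 4 wild-type Ler samples, each 1 array of seeds isolated from siliques between the globular and the walking-stick stage of the embryo. TTG1 is a WD40-repeat protein that works with MYB and bHLH transcription factors in seed coat pigment and mucilage formation and in trichome development. The source labels add a running number to each genotype whose meaning is not given. The titles call the replicates of each genotype biological. The labels state neither the mutant's allele and parent line nor how the replicates were grown, and the p-values rest on the spread among these 8 arrays. Each value is a log2 distance from the median of the same probe set over the 8 arrays. Such values hold no absolute level, so that genes cannot be ranked by expression and the seed identity of the RNA cannot be checked from marker levels. In whole seeds, fewer cells of a type and less RNA per cell cannot be told apart.

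Plant P450s are membrane-bound, haem-containing monooxygenases that take electrons from a reductase and oxidise small molecules. Families of P450s carry out steps in the synthesis of phenylpropanoids, glucosinolates, sterols, terpenoids, cutin and hormones. CYP71B is a large subfamily whose genes lie side by side in tandem groups on the chromosomes. It includes PAD3, the last enzyme of camalexin synthesis, which was not measured by name. CYP79 enzymes turn amino acids into aldoximes, the first committed step of glucosinolate synthesis. CYP78A enzymes promote the growth of ovules, seeds and other organs through a signal that is not known.

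The genotype labels were checked on seed coat genes, since TTG1 itself was not among the named probe sets. These genes were listed with earlier results of these data known, so that their fall is no independent support for the labels. Of 10 seed coat genes that depend on TTG1, 4 were measured by name and all 4 fell, with a mean value between -2.36 and -2.13 on the ttg1 arrays and between 1.94 and 2.19 on the Ler arrays. No marker of another tissue passed the test, and the mean of each list overlapped between the genotypes. Of the single markers, the silique wall gene YAB3 did not overlap. It measured 0.039 to 0.977 in ttg1 and -0.768 to -0.039 in Ler, a gap of 0.078, with a log2 change of 0.67 (adjusted p 0.116 in limma), while the other marker of that list, ALC, overlapped and had a log2 change of -0.47. The mean value of the 2 of 8 silique wall markers ran from -0.297 to 0.199 in ttg1 and from -0.233 to 0.095 in Ler. For the 2 of 7 photosynthetic markers it ran from -0.281 to 0.735 in ttg1 and from -0.252 to -0.005 in Ler, and for the 3 of 8 endosperm markers from -0.069 to 0.245 in ttg1 and from -0.046 to 0.010 in Ler. Their part in the results on P450 genes was not tested. The array of ttg1 replicate 4 stood farthest from its group (SD of its deviations over all probe sets 0.245, against 0.115 to 0.184 on the other arrays).

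Of the 23 P450 probe sets, 1 was lower and 1 was higher in ttg1 at an adjusted p under 0.05 in limma, namely CYP79A2 and CYP78A9. That is 8.7% of the members, beside 5.72% of all probe sets tested, with 1.76% of all probe sets higher and 3.96% lower. With 2 genes called, the members' share is not a result about the family. The median log2 change was 0.018 over the members and 0.025 over all probe sets. The median size of the change, without its sign, was 0.094 in the members and 0.134 in all probe sets. In 3 members, 13% of them, the ttg1 and Ler values did not overlap, beside 14.8% of all probe sets.

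**Figure D1:**
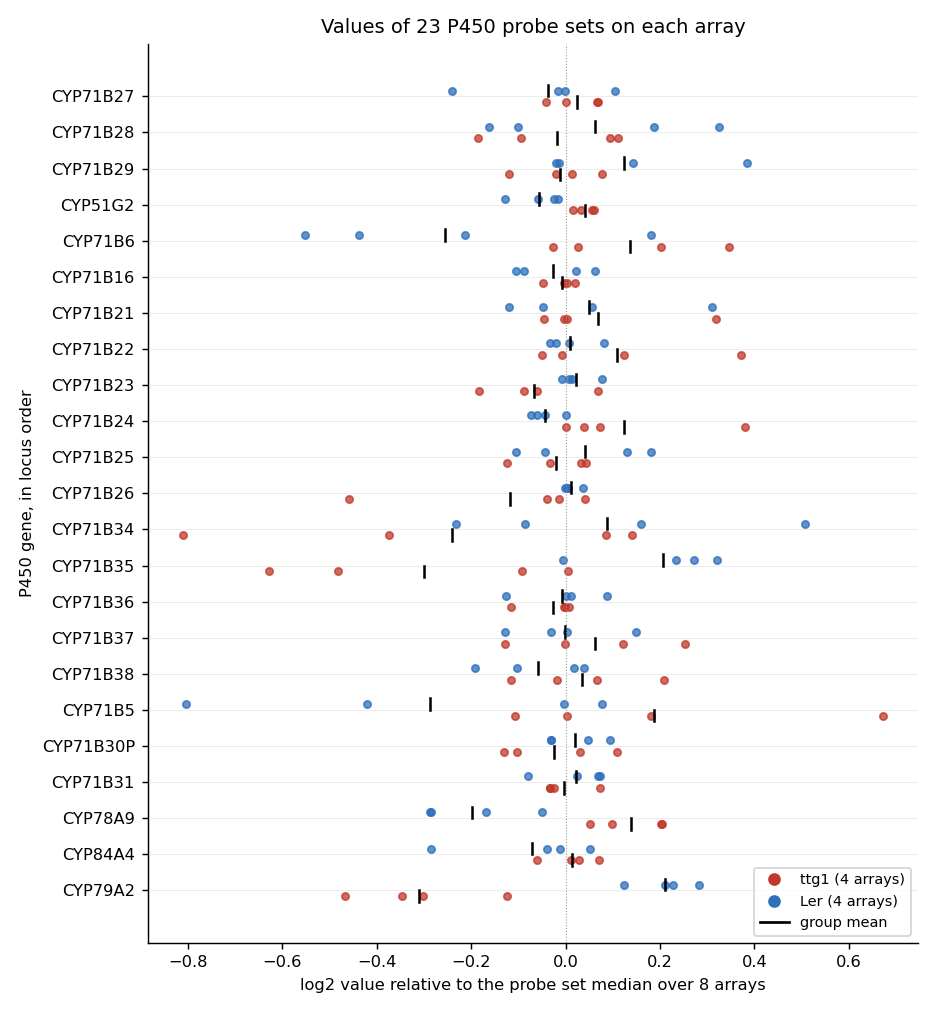
Log2 distance of each of the 23 P450 probe sets from its median over 8 arrays (x axis), by gene in locus order (y axis). Points are single arrays, red for the 4 ttg1 and blue for the 4 Ler arrays, and black bars are group means. The colours separate fully in CYP79A2, CYP78A9 and CYP51G2, and the widest spread within colours is seen in CYP71B34 and CYP71B5.

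CYP79A2 (AT5G05260), which converts phenylalanine to phenylacetaldoxime for benzylglucosinolate synthesis, was lower in ttg1. In the order of replicates 1 to 4, ttg1 gave -0.302, -0.468, -0.124 and -0.346 and Ler gave 0.124, 0.227, 0.282 and 0.210. Every ttg1 value lay below every Ler value, with a gap of 0.248 between the groups. The means were -0.310 ± 0.142 in ttg1 and 0.211 ± 0.066 in Ler (SD, n = 4). The log2 change was -0.52 ± 0.09 (SE) with a 95% interval from -0.72 to -0.32, which makes the transcript 1.43-fold lower (adjusted p 0.00703 in limma). CYP79A2 passed the test under all 19 alternative settings, with log2 changes between -0.58 and -0.47. With each array left out in turn its adjusted p ranged from 0.00526 to 0.0321.

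CYP78A9 (AT3G61880), whose overexpression is known to enlarge fruits and seeds, was higher in ttg1 by a smaller amount. The ttg1 arrays gave 0.204, 0.051, 0.099 and 0.201 and the Ler arrays -0.284, -0.051, -0.169 and -0.287 in replicates 1 to 4. The groups did not overlap, and the gap between them was 0.103. The means were 0.139 ± 0.076 in ttg1 and -0.198 ± 0.112 in Ler (SD, n = 4). The log2 change was 0.34 ± 0.09 (SE) with a 95% interval from 0.15 to 0.53, a 1.26-fold rise whose adjusted p of 0.0460 in limma lay just inside the threshold. The call was lost whichever of the 8 arrays was left out, with log2 changes from 0.31 to 0.39 and adjusted p from 0.0533 to 0.129, and in 13 of 19 alternative settings in all. With the replicate number as a block the log2 change was 0.34 and the adjusted p 0.0763. The direction was the same in every one of the 19 settings.

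**Figure D2:**
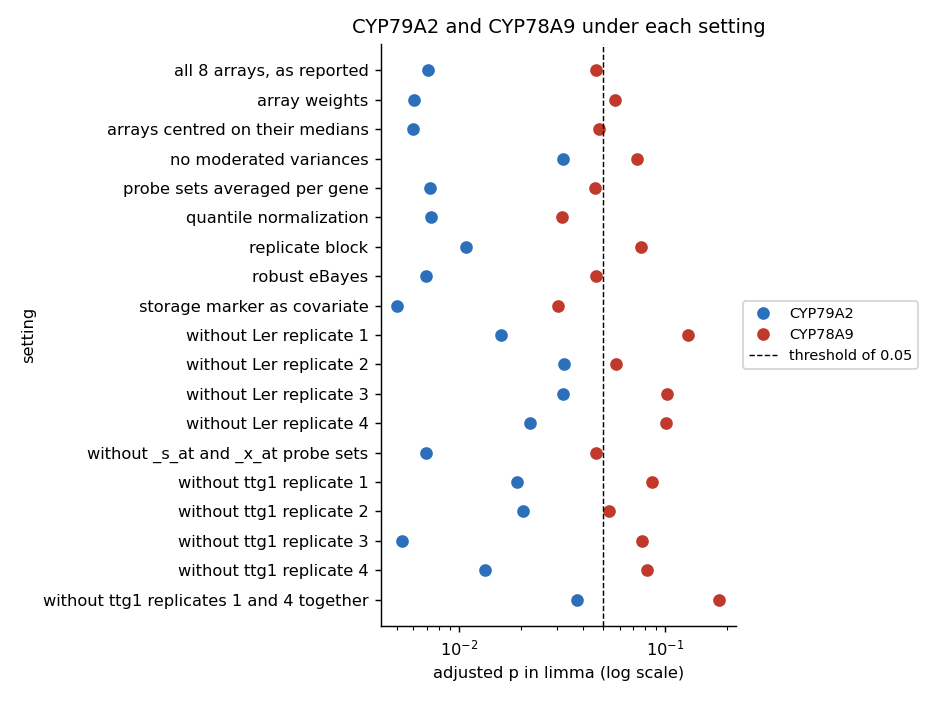
Adjusted p in limma (x axis, log scale) of CYP79A2 in blue and CYP78A9 in red under the reported fit and 18 of the alternative settings (y axis), with the threshold of 0.05 as a dashed line. CYP79A2 lies left of the line throughout, up to 0.0375, while CYP78A9 moves between 0.0303 and 0.183 and crosses it.

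The gene next to CYP79A2 on chromosome 5 in the RefSeq gene order is CHIL (AT5G05270), a chalcone isomerase-like protein that promotes flavonoid synthesis, and CHIL also fell. This pair was picked out after its values were seen. In the same order of replicates CHIL gave -0.998, -0.995, -0.753 and -1.247 in ttg1 and 1.043, 0.753, 1.001 and 0.954 in Ler. CHIL thus separated the groups by a gap of 1.51, and its log2 change of -1.94 ± 0.11 (SE) was the larger of the pair (adjusted p 1.89e-06 in limma). Of the 10 genes within 5 places of CYP79A2, 5 were measured by name. CHIL was the 1 of them called, and the other 4 had log2 changes of -0.32 for AT5G05210, -0.11 for AT5G05220, -0.14 for AT5G05230 and -0.33 for AT5G05250, with adjusted p between 0.143 and 0.627 and overlapping groups. In both CYP79A2 and CHIL the highest ttg1 value was that of replicate 3, but the arrays were otherwise ordered differently. The lowest ttg1 value was that of replicate 2 in CYP79A2 (-0.468) and of replicate 4 in CHIL (-1.247). Ler replicate 1 was the lowest Ler array in CYP79A2 (0.124) and the highest in CHIL (1.043).

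**Figure D3:**
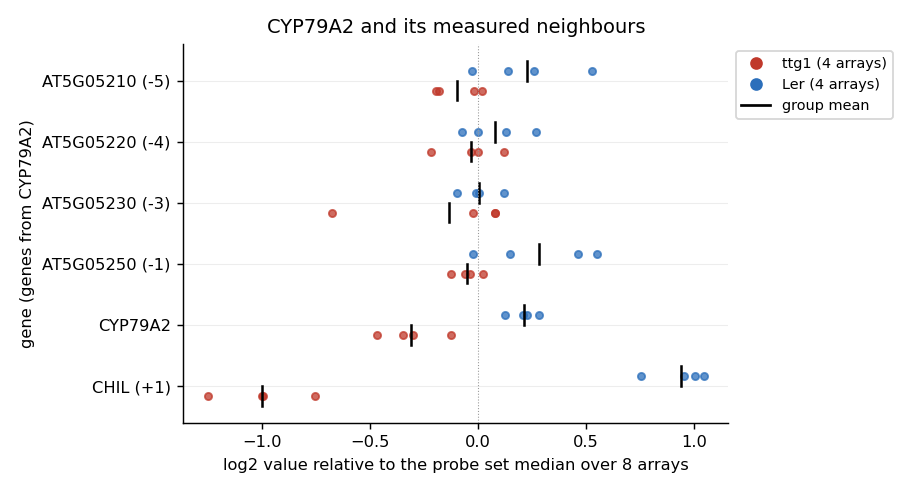
Log2 distances from the probe set median over 8 arrays (x axis) for CYP79A2 and its 5 measured neighbours (y axis, with the distance in genes). Points are single arrays, red for ttg1 and blue for Ler, and black bars are group means. CHIL and CYP79A2 separate the genotypes, while the 4 genes on the other side of CYP79A2 overlap between them.

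Genes that act with P450s were sparsely named on the array. Of 28 genes of glucosinolate and camalexin synthesis, transport and control, 6 were measured by name, and 1 was lower. Of all probe sets tested, 3.96% were lower. UGT74B1 (AT1G24100), the glucosyltransferase that acts after the CYP79 and CYP83 steps of glucosinolate synthesis, measured -0.108, -0.168, -0.380 and -0.354 on the ttg1 arrays and 0.855, 0.723, 0.862 and 0.108 on the Ler arrays, again from replicate 1 to 4. All ttg1 values lay below the Ler values, among which replicate 4 was low. Its log2 change was -0.89 ± 0.16 (SE), a 1.85-fold fall (adjusted p 0.00861 in limma). The other 5 did not pass. BCAT4, an aminotransferase of methionine chain elongation, had a log2 change of 0.37, GSTU20, a glutathione transferase of the same pathway, 0.32, and AOP3, an enzyme of side chain modification, 0.27. The glucosinolate transporter genes GTR1 and GTR2 had log2 changes of 0.05 and -0.18. The adjusted p of these 5 lay between 0.381 and 0.887, and the median over the 6 genes was 0.16.

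Of 15 genes listed as redox and binding partners of P450s, 2 were measured by name and neither passed. They are AT3G02280, the diflavin reductase ATR3, with a log2 change of 0.01, and AT5G20080, a cytochrome b5 reductase-like gene, with -0.19 (adjusted p 0.977 and 0.252 in limma). Whether either of them serves a P450 was not tested, and the listed reductase genes ATR1 and ATR2 were not measured by name. Of 21 phenylpropanoid and flavonoid genes that act with CYP73, CYP75, CYP84 and CYP98, 4 were measured by name, and DFR, BAN and CHIL were lower. DFR and BAN are also among the seed coat genes used to check the labels, and CHIL is the neighbour of CYP79A2 described above. The lists were chosen with earlier results known, so their counts are no independent support for a change around P450s. Of all probe sets tested, 3.96% were lower and 1.76% higher. The remaining phenylpropanoid gene, HCT, which makes the ester that CYP98A3 hydroxylates, did not pass the test. All its ttg1 values lay below all Ler values, by a gap of 0.033. The log2 change of HCT was -0.28 ± 0.09 (SE), with an adjusted p of 0.0997 in limma. Of 29 cutin, suberin and wax genes 2 were measured by name. The wax ester synthase gene WSD1 was higher, with a log2 change of 4.96 ± 0.33 (SE, adjusted p 5.88e-06 in limma), and FACT had -0.08 (adjusted p 0.636). None of 35 hormone genes and none of 26 P450 genes usually called by another name, such as those of flavonoid 3'-hydroxylase and cinnamate 4-hydroxylase, was measured by name, and they were not analysed here.

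The 19 CYP71B genes gave no call. Their log2 changes ran from -0.50 in CYP71B35 to 0.48 in CYP71B5, 9 were above 0 and 10 below, and the median was -0.02. In none of the 19 did the groups separate, beside 14.8% of all probe sets. At an unadjusted p under 0.05 limma gave 3 of the 19, or 15.8%, beside 23% of all probe sets. The 95% interval of the change lay within ±0.5 for 15 of the 19, so that a larger change than that is outside the interval for those. This holds for the array values only, since signal over background is unknown and a dim probe set may hide a change of its transcript. The exceptions were CYP71B34, CYP71B35, CYP71B6 and CYP71B5.

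**Figure D4:**
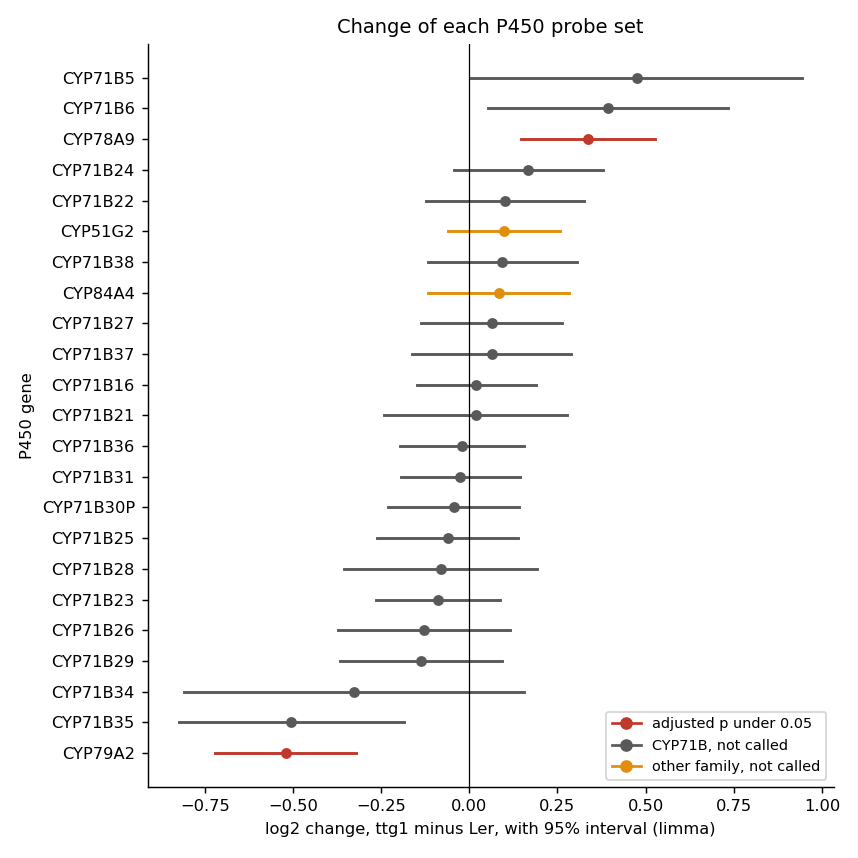
Log2 change, ttg1 minus Ler, with its 95% interval from limma (x axis) for each of the 23 P450 genes (y axis, ordered by size). Red marks the 2 genes with an adjusted p under 0.05, grey the 19 CYP71B genes and orange CYP51G2 and CYP84A4. Most intervals are narrow and span 0, and those of CYP71B34, CYP71B35, CYP71B6 and CYP71B5 are wide.

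CYP71B35 (AT3G26310) came closest to a call among the genes that missed the threshold. The ttg1 arrays of replicates 1 to 4 gave -0.483, -0.092, 0.006 and -0.628, and the Ler arrays 0.234, 0.321, 0.272 and -0.006. The groups overlapped by 0.012, through ttg1 replicate 3 and Ler replicate 4. The log2 change was -0.50 ± 0.14 (SE) with a 95% interval from -0.82 to -0.19 and an adjusted p of 0.0699 in limma. It missed the threshold in 16 of the 19 alternative settings. The adjusted p was 0.0400 without ttg1 replicate 3, 0.0193 with the replicate number as a block and 0.0271 with a storage protein marker as a covariate. Without Ler replicate 2 it was 0.191, and without ttg1 replicates 1 and 4 together the log2 change was -0.25 with an adjusted p of 0.280.

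CYP71B34 (AT3G26300) lies beside CYP71B35 and ordered the ttg1 arrays in the same way. Its values were -0.373, 0.085, 0.140 and -0.811 in ttg1 and 0.508, 0.160, -0.233 and -0.085 in Ler, in replicates 1 to 4. In both genes ttg1 replicate 4 was lowest, followed by replicates 1, 2 and 3, while the Ler arrays were ordered differently in each. Over all probe sets, ttg1 replicate 4 was the lowest ttg1 array in 26.9%. The log2 change of CYP71B34 was -0.33 ± 0.22 (SE, adjusted p 0.395 in limma). It was 0.02 when ttg1 replicates 1 and 4 were both left out. Its SD within genotypes of 0.389 was the highest of the 23 members. Whether transcripts of neighbouring CYP71B genes share probes was not tested, since probe sequences were not used here. None of the 23 probe sets carries the suffix that marks probes shared between transcripts.

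CYP71B5 (AT3G53280) and CYP71B6 (AT2G24180) had the highest log2 changes above 0 among the members. CYP71B5 gave -0.108, 0.181, 0.004 and 0.673 on the ttg1 arrays and -0.804, -0.420, 0.078 and -0.004 on the Ler arrays, so that ttg1 replicate 4 was far above the rest and Ler replicates 1 and 2 far below. Its log2 change was 0.48 ± 0.21 (SE, adjusted p 0.213 in limma) and its SD within genotypes 0.378. PAP85, a vicilin-like storage protein and the only one of 12 seed filling markers measured by name, was highest in replicate 4 and lowest in replicate 1 of both genotypes. PAP85 measured -1.052, 0.190, -0.190 and 2.171 in ttg1 and -1.022, -0.408, 0.288 and 2.276 in Ler. With PAP85 as a covariate, an alternative added after seeing the data, CYP71B5 passed the test (log2 change 0.48, adjusted p 0.0301 in limma). It missed the threshold in the other 18 settings, and its log2 change was 0.30 without Ler replicate 1 (adjusted p 0.461) and 0.31 without ttg1 replicate 4 (adjusted p 0.416).

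CYP71B6, which oxidises indole-3-acetonitrile to indole-3-carboxylic acid, gave 0.026, 0.346, 0.203 and -0.026 on the ttg1 arrays and 0.180, -0.214, -0.552 and -0.438 on the Ler arrays. Replicates 2, 3 and 4 of Ler lay below all ttg1 arrays, and Ler replicate 1 lay among them. The log2 change was 0.39 ± 0.15 (SE) with a 95% interval from 0.05 to 0.73 and an adjusted p of 0.160 in limma. Without Ler replicate 1 the log2 change was 0.54 and the adjusted p 0.0455, the only one of 19 settings in which the gene passed. Without Ler replicate 3 the log2 change was 0.29 (adjusted p 0.329), and with quantile normalization it was 0.59 (adjusted p 0.113).

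The values of the remaining CYP71B genes moved little, and which of these genes were above background is unknown. The largest tandem group holds 11 measured genes on chromosome 3, from CYP71B16 (AT3G26150) to CYP71B37 (AT3G26330). Apart from CYP71B34 and CYP71B35 their log2 changes ran from -0.13 in CYP71B26 to 0.17 in CYP71B24, and the median over all 11 was -0.02. In CYP71B24 the ttg1 values, 0.380, 0.072, 0.040 and 0, and the Ler values, 0, -0.073, -0.044 and -0.060, met at 0. Its log2 change of 0.17 had a 95% interval from -0.04 to 0.38. On chromosome 1, CYP71B28 and CYP71B29 had log2 changes of -0.08 and -0.14, and CYP71B27, annotated as a transcribed pseudogene, 0.06. CYP71B31 (AT3G53300), which oxidises the flower terpenoid linalool, and CYP71B30P beside it had -0.03 and -0.04, while CYP71B5 in the same tandem group had 0.48. CYP71B38, which stands apart from these groups, had 0.09. The adjusted p of all these genes, CYP71B5 apart, lay between 0.322 and 0.944 in limma.

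CYP84A4 and CYP51G2 are the only genes of their families measured by name. CYP84A4 (AT5G04330), an enzyme of arabidopyrone synthesis related to ferulate 5-hydroxylase, gave 0.070, -0.060, 0.028 and 0.012 on the ttg1 arrays and -0.284, 0.051, -0.012 and -0.039 on the Ler arrays. The groups overlapped, with Ler replicate 1 low, and the log2 change was 0.08 with a 95% interval from -0.12 to 0.28 (adjusted p 0.614 in limma). CYP51G2 (AT2G17330) is annotated as a transcribed pseudogene related to the sterol 14-demethylase gene CYP51G1. It measured 0.032, 0.016, 0.056 and 0.060 in ttg1 and -0.128, -0.058, -0.025 and -0.016 in Ler, in replicates 1 to 4. All ttg1 values lay above all Ler values by a gap of 0.031, and the 8 arrays spanned 0.188. The log2 change was 0.10 ± 0.07 (SE) and did not pass the test (adjusted p 0.442 in limma).

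**Figure D5:**
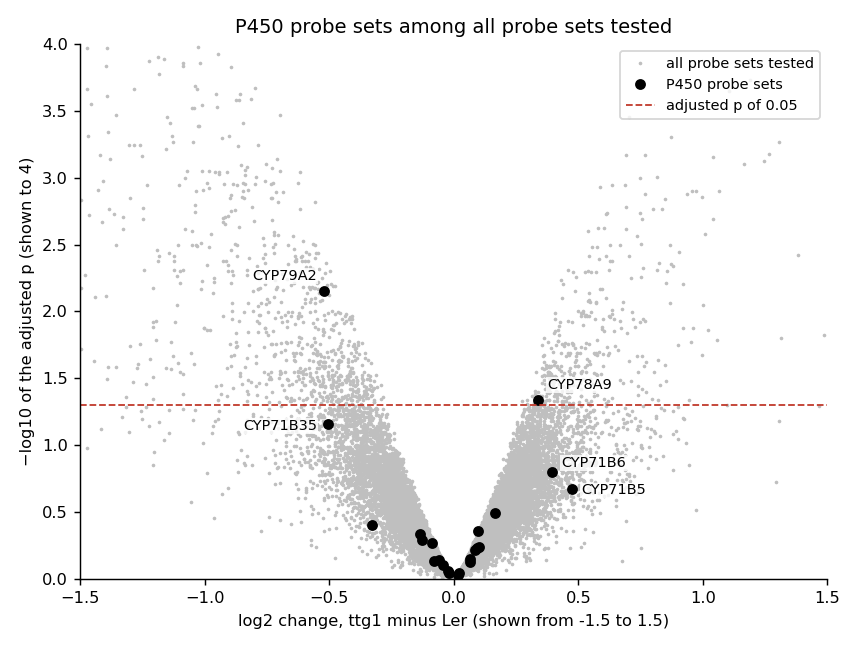
Log2 change, ttg1 minus Ler (x axis, from -1.5 to 1.5), against −log10 of the adjusted p from limma (y axis, up to 4) for all probe sets in that range (grey) and the 23 P450 probe sets (black). The dashed line is the threshold of 0.05. CYP79A2 and CYP78A9 lie above the line, and the other 21 members lie below it, most of them near the origin.

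The spread of the P450 genes within genotypes was modest beside that of other probe sets. The SD within genotypes, pooled over both, had a median of 0.124 in the 23 members and 0.152 in all probe sets, and ran from 0.039 in CYP51G2 to 0.389 in CYP71B34. After CYP71B34 and CYP71B5, CYP71B6 was the most variable, with 0.258. The SD over the 19 CYP71B genes on one array was widest in ttg1 replicate 4, at 0.328, and narrowest in ttg1 replicate 3, at 0.079, where the SD over all probe sets was 0.374 and 0.212. On the Ler arrays it lay between 0.153 and 0.261. The median over all 23 members was near 0 on every array, between -0.020 and 0.022.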

How the data were processed

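The deposited values are RMA values on a log2 scale, per the submitters' processing notes, which give no software version. The median of every probe set in the deposited log2 table is 0 within 5e-07, which shows a centring step that the labels do not give. The log base was taken from RMA. Signal over background is therefore unknown, no filter on dim probe sets could be applied, and the number of arrays limits the precision.

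Groups and replicate numbers came from the sample titles. The 64 Affymetrix controls were left out, and ttg1 minus Ler was fitted for 22746 probe sets in R 4.3.3 with the lmFit and eBayes functions of limma 3.58.1 (no covariate, two-sided), with Benjamini-Hochberg adjustment over all of them and a threshold of 0.05. The step was tested on simulated data with the residual SDs of these arrays. It called 25 of 50 simulated log2 changes of 0.5 and 48 of 50 of 1. Of 22546 probe sets simulated without a change, it called 12. Genes were named from the platform annotation, which lists 1 gene for 13513 probe sets. All 23 members were found in the RefSeq table of TAIR10.1, which was used for locus IDs, gene order and gene type only. Members with at most 10 genes between them count as 1 tandem group.

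The members and all gene lists were chosen with earlier results of these data known. Named by rule were the genes past the threshold, CYP78A9 and CYP79A2, the 3 nearest misses, and the 3 with the largest SD within genotypes, and the other members were added as values. Sequences were not used here. The alternatives were a replicate block, quantile normalization, centring of arrays, robust eBayes, array weights, no moderated variances, values averaged per gene, omission of probe sets with an _s_at or _x_at suffix, a threshold of 0.01 and omission of each array. Omission of ttg1 replicates 1 and 4 together and PAP85 as a covariate were added after seeing the data.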

Additional observations from a re-analysis of the deposited data

Results flagged for a closer look

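Within groups of 4 arrays, 4 of the 46 member groups examined, 8.7%, had a single array whose gap to the nearest other, divided by the group's range, exceeded Dixon's 95% critical value, where chance flags about 1 in 20 and where 6.04% of the groups of all probe sets were flagged. All 4 were in ttg1. CYP71B26 was low in replicate 4, at -0.458, with the other 3 between -0.040 and 0.042. CYP71B21 was high in replicate 1, at 0.318, with the others between -0.046 and 0.004. CYP71B36 was low in replicate 2, at -0.115, with the others between -0.003 and 0.008. CYP71B31 was high in replicate 4, at 0.073, with the others between -0.032 and -0.025. None of the 4 genes was called in any of the 19 alternative settings.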

How the results depend on the processing

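CYP79A2 kept its direction and its call in all 19 settings, with log2 changes between -0.58 and -0.47 when single arrays were left out. CYP78A9 kept its direction in all 19 settings and lost its call in 13. Its log2 change ranged from 0.31 to 0.39 with single arrays left out and was 0.28 with array weights, 0.34 without moderated variances, with the replicate block and at a threshold of 0.01, and 0.27 without ttg1 replicates 1 and 4. The count of higher P450 probe sets was therefore 0 in those settings and between 0 and 1 with single arrays left out (without Ler replicate 1 the 1 gene was CYP71B6), and it was 2 with PAP85 as a covariate. The count of lower ones was 2 with the replicate block and with the covariate, through CYP71B35, and between 1 and 2 with single arrays left out. Of the 21 uncalled members, CYP71B35 passed in 3 settings and CYP71B5 and CYP71B6 in 1 each, with log2 changes over the 19 settings from -0.61 to -0.25, from 0.30 to 0.60 and from 0.29 to 0.59. Another 10 changed sign in some setting, all with an adjusted p above 0.7 there, and the signs of small changes are not settled. With single arrays left out CYP71B16 lay between -0.01 and 0.05, CYP71B21 between -0.06 and 0.11, CYP71B27 between 0.00 and 0.11, CYP71B28 between -0.16 and 0.01, CYP71B36 between -0.06 and 0.01 and CYP71B37 between 0.00 and 0.13. Array weights gave -0.01 for CYP71B16 and 0.00 for CYP71B28, and quantile normalization gave -0.01 for CYP71B21. Without ttg1 replicates 1 and 4 the log2 change was -0.05 for CYP71B21, -0.04 for CYP71B22, 0.00 for CYP71B26, 0.04 for CYP71B28, 0.02 for CYP71B34, 0.00 for CYP71B37 and -0.01 for CYP71B38. The causes were not tested.

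Over all probe sets the counts of 400 higher and 900 lower ranged from 112 higher at a threshold of 0.01 to 1170 higher with the covariate, and from 409 lower without moderated variances to 1673 lower with the covariate. Without Ler replicate 1, 2 or 3 they were 233 and 535, 164 and 509, and 190 and 548. Array weights gave 786 higher, the replicate block 687 higher, and averaging per gene, over 13356 genes, 195 higher and 505 lower. The labels do not say whether same-numbered arrays of the genotypes share more than a number. Their deviations from the group means correlated at 0.077, 0.032, -0.313 and 0.482 for replicates 1 to 4. Not every array correlated best with its own number, while PAP85 was lowest in replicate 1 and highest in replicate 4 of both genotypes. A stage or batch shared by number was not tested. The filter on low values was planned and not run, because centred values hold no levels.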

Other observations

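CYP718, a P450 gene whose symbol lacks the subfamily letter and which therefore was not a member, gave 0.221, -0.195, -0.003 and 0.184 on the ttg1 arrays and -0.175, -0.027, 0.003 and 0.098 on the Ler arrays, from replicate 1 to 4. The groups overlapped, and its log2 change was 0.08 with a 95% interval from -0.16 to 0.32 (adjusted p 0.708 in limma). Of the 10 genes within 5 places of CYP78A9, 3 were measured by name and none was called, with log2 changes of -0.01 for AT3G61840, 0.26 for AT3G61870 and -0.06 for AT3G61920. Around CYP79A2, 1 of 5 measured neighbours was called, namely CHIL, beside 5.72% of all probe sets tested. These counts are too small to set the neighbourhoods apart. The difference between these neighbourhoods was not tested, and 7 of the 10 genes around CYP78A9 and 5 of the 10 around CYP79A2 were not measured by name.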
